A study of Mus musculus with 6 samples.

Results

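Decidualization is the conversion of fibroblast-like stromal cells of the uterus into the secretory decidual cells that surround an implanting embryo, and it runs under progesterone and cAMP. A small group of transcription factors carries it. C/EBPβ and C/EBPδ are leucine-zipper factors induced by cAMP and by inflammatory signals, FOXO1 is a forkhead factor that binds decidual promoters together with the progesterone receptor and is kept out of the nucleus when AKT phosphorylates it, FOXO3 is its relative, GATA2 acts upstream of the progesterone receptor, SOX4 is an HMG-box factor of the SOXC class that progesterone induces in decidual cells, KLF4 and KLF9 are zinc-finger factors that bind GC-rich promoters, and KLF9 also interacts with the progesterone receptor. ZBTB16, also called PLZF, is a zinc-finger repressor that the progesterone and glucocorticoid receptors induce. The mRNA levels of these factors are described here in uterine stromal cells with and without Pbrm1, which encodes the polybromo subunit of the PBAF class of SWI/SNF chromatin remodellers.

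The members were a list of 9 named genes (Cebpb, Cebpd, Foxo1, Foxo3, Gata2, Sox4, Klf4, Klf9 and Zbtb16), found by their symbols among the 54232 genes of the count table. All 9 had counts in every library and entered the test, which covered 17474 genes. The 6 libraries were 3 WT and 3 Pbrm1 cKO samples of primary stromal cells from uterine horns of mice aged 8 to 12 weeks on day 4 of pseudopregnancy. The controls are named WT in the labels but Pbrm1 fl/fl, without Cre, in the methods. In the Pbrm1 cKO mice the same floxed gene is cut by a Cre driven from the progesterone receptor locus, so deletion is not limited to stroma but can take place in any cell that expresses the receptor. Each sample pooled 5 to 10 horns. The cells were released by enzymes, plated in 10% charcoal-stripped serum, given fresh medium after 4 h and collected 2 h later. No decidualizing stimulus was given, so the values describe stromal cell preparations and not decidual cells. The paper reports impaired receptivity in Pbrm1 cKO uteri, so a receptive state is not assumed for both groups. The study calls the replicates of a group biological, but the labels do not say which animals each came from, so the p-values measure the spread between these samples.

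Total counts were 13253575 to 18338667 per library. Normalized counts of Pbrm1 were 1354, 1385 and 1677 in WT and 397, 459 and 451 in Pbrm1 cKO (log2 fold change -1.76, SE 0.13, DESeq2 adjusted p = 5.19e-40), so the targeted gene matched the labels in every library. Among the 14 stromal markers, the abundant Vim and Col1a1 were present at high counts, 1 was higher and 7 were lower in Pbrm1 cKO, Vim and Col1a1 among the latter, and the summed level of the list was 7688 to 8812 CPM (counts scaled to a common library total) in WT and 6064 to 6427 CPM in Pbrm1 cKO. The samples also held RNA of other cells. Markers are counted as higher or lower at a DESeq2 adjusted p under 0.05, beside 15.9% and 15.2% of all genes tested. Leukocyte markers, with Lyz2 and Cd74 the most abundant, summed to 307 to 686 CPM in WT and 2749 to 2892 CPM in Pbrm1 cKO, and 14 of the 15 tested were higher. Epithelial markers (6 of 17 tested higher) summed to 146 to 263 CPM and 280 to 295 CPM, endothelial markers (1 of 12 higher, 3 lower) to 120 to 366 CPM and 123 to 136 CPM, smooth muscle markers (6 of 11 lower) to 4039 to 4408 CPM and 3770 to 3899 CPM, neutrophil markers (2 of 3 higher, Cxcr2 at 0 in every library) to 2.02 to 2.49 CPM and 10.6 to 11.6 CPM, erythroid markers (4 of 4 higher) to 0.144 to 0.586 CPM and 9.27 to 17.99 CPM, and mesothelial markers (1 of 5 higher) to 33.8 to 37.9 CPM and 45.2 to 48.5 CPM. WT replicate 1 stood apart from the other WT libraries in its endothelial (120 CPM), epithelial (146 CPM) and leukocyte (307 CPM) sums, and results without it are given beside the members it moved most (Cebpd, Klf4, Gata2 and Zbtb16). In such bulk samples, fewer cells of a type and less RNA per cell cannot be told apart, and the part of other cell types in the values below was not tested.

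Of the 9 factors, 2 rose (Foxo3 and Sox4), 2 fell (Cebpd and Foxo1) and 5 did not pass the test (Cebpb, Gata2, Klf4, Klf9 and Zbtb16), at a DESeq2 adjusted p under 0.05 over all genes. These 4 calls are 44.4% of the members, beside 31.1% of all genes tested, of which 15.9% were higher and 15.2% were lower. Groups did not overlap for 6 of the 9 factors, beside 48.6% of all genes tested. The median log2 fold change of the 9 was -0.15, beside 0.00 (-0.0007) over all genes tested. The factors did not share a direction.

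**Figure D1:**
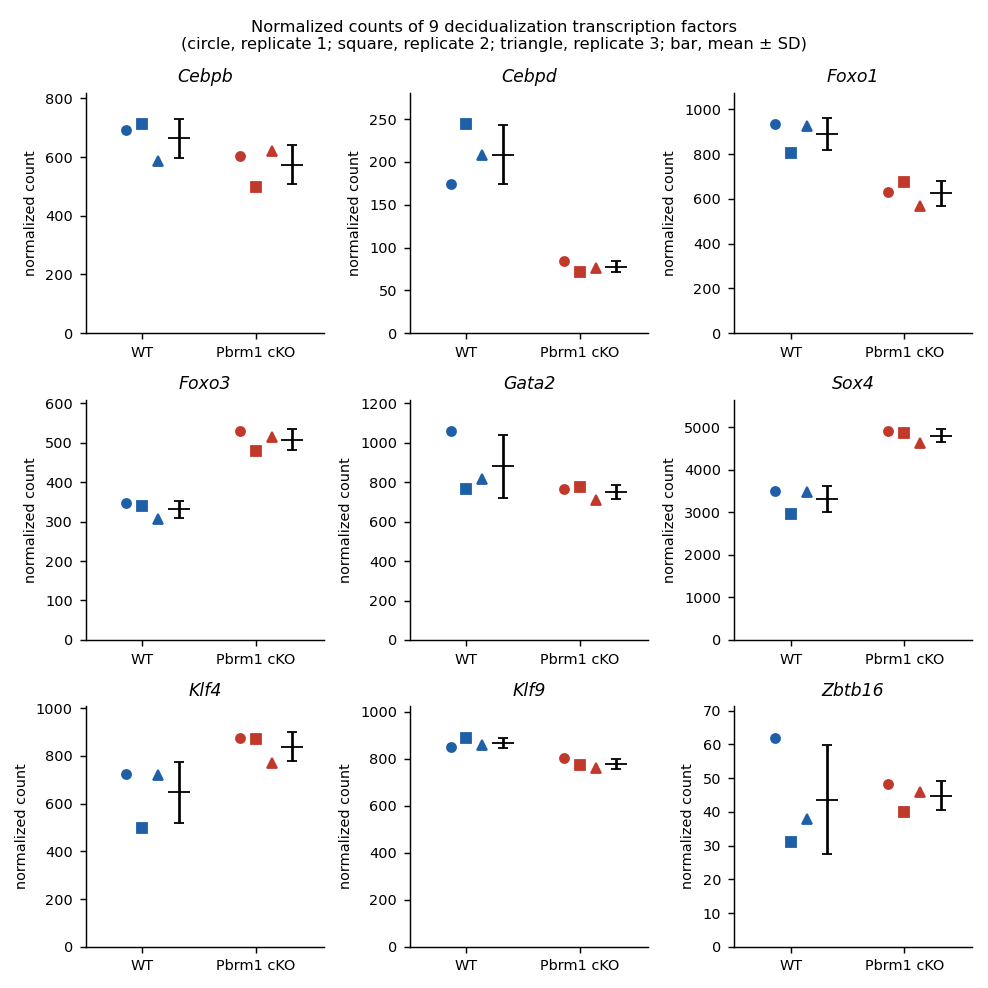
Normalized count (vertical axis, from 0) of each of the 9 factors in the 3 WT libraries (blue) and the 3 Pbrm1 cKO libraries (red), with the mean and SD beside the points. Cebpd and Foxo1 lie lower and Foxo3 and Sox4 higher in every Pbrm1 cKO library than in any WT library, while Cebpb, Gata2 and Zbtb16 overlap.

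The C/EBP pair differed between its members. Cebpd (chr16:15887286-15891031, plus strand, a gene of a single exon) had 174, 244 and 208 normalized counts in WT, against 84.8, 71.9 and 76.0 in Pbrm1 cKO. The highest Pbrm1 cKO library was below the lowest WT library. The mean fell from 209 ± 35.0 to 77.6 ± 6.61 (SD, n = 3 each), which is 37.2% of the WT level (log2 fold change -1.43, SE 0.21, DESeq2 adjusted p = 1.75e-10). Without WT replicate 1 the log2 fold change was -1.55, and Cebpd is the only member that also passed when tested against a log2 change of 0.58 in either direction (adjusted p = 0.00132). Cebpb (chr2:167688915-167690418, plus strand, also a single exon), which encodes the C/EBP factor needed for the decidual response in mice, had 693, 713 and 587 normalized counts in WT, against 604, 499 and 620 in Pbrm1 cKO. These ranges overlap. Its log2 fold change of -0.21 (SE 0.14, 95% interval -0.48 to 0.06) did not pass the test (adjusted p = 0.263), and the interval leaves room for a fall of up to 0.48 on the log2 scale.

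The count of Cebpb over that of Cebpd within a library does not depend on library scaling. It was 3.98, 2.92 and 2.83 in WT and 7.12, 6.93 and 8.16 in Pbrm1 cKO. Every Pbrm1 cKO library was above every WT library, with a difference in log2 ratio of 1.21 (WT 1.68 ± 0.27, Pbrm1 cKO 2.88 ± 0.13). An exact two-sided permutation test gave p = 0.1, the smallest value that 3 against 3 samples can give, and the same after adjustment over the 3 ratios computed here. Among the other C/EBP genes, Cebpa, which holds several cell types in a differentiated state, rose (323, 260 and 249 normalized counts in WT, 479, 411 and 450 in Pbrm1 cKO; log2 fold change 0.69, SE 0.15, adjusted p = 5.2e-05), while Cebpg (adjusted p = 0.669) and Ddit3 (adjusted p = 0.923) did not pass the test and Cebpe was too low to be tested. As shares of the summed TPM (counts divided by gene length and scaled to a common library total) of these 6 genes, Cebpd went from 4.81% to 6.96% in the WT libraries to 2.17% to 2.48% in the Pbrm1 cKO libraries, and Cebpa from 10.5% to 12.7% to 18.3% to 19.9%. Cebpb made up 46.1% to 50.6% and 39.9% to 44.1%. Cebpa is a factor that myeloid cells also express strongly, and the leukocyte sums given above were likewise higher in Pbrm1 cKO. Within WT, replicate 1 had the highest Cebpa count (323) but the lowest leukocyte sum (307 CPM). The sums of WT replicates 2 and 3 were 686 and 660 CPM. The part of leukocytes in the rise of Cebpa was not tested.

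Both FOXO members changed, in opposite directions. Foxo1 (chr3:52268336-52353221, plus strand, 3 exons) had 934, 806 and 925 normalized counts in WT, against 632, 674 and 567 in Pbrm1 cKO. The groups did not overlap, and the mean fell from 888 ± 71.7 to 624 ± 54.3, or 70.3% of WT (log2 fold change -0.51, SE 0.12, adjusted p = 0.000226). Foxo3 (chr10:42181841-42276755, minus strand, 3 to 4 exons) had 346, 338 and 307 normalized counts in WT, against 530, 479 and 513 in Pbrm1 cKO. The lowest Pbrm1 cKO library was above the highest WT library, and the mean rose from 331 ± 20.8 to 507 ± 26.1, which is 153% of WT (log2 fold change 0.62, SE 0.13, adjusted p = 1.2e-05). With any 1 library left out, both stayed past the test, Foxo1 at -0.58 to -0.44 and Foxo3 at 0.56 to 0.66, but neither passed the test against 0.58 (adjusted p = 1 for each).

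Within a library, the count of Foxo1 over that of Foxo3 was 2.7, 2.38 and 3.01 in WT and 1.19, 1.41 and 1.10 in Pbrm1 cKO. The highest Pbrm1 cKO ratio was below the lowest WT ratio, and the difference in log2 ratio was -1.13 (WT 1.42 ± 0.17, Pbrm1 cKO 0.30 ± 0.18; exact two-sided permutation p = 0.1, the smallest possible). Foxo4, the third FOXO gene expressed here, had 235, 205 and 190 normalized counts in WT, against 144, 131 and 131 in Pbrm1 cKO and fell (log2 fold change -0.64, SE 0.18, adjusted p = 0.0017). Foxo6 was too low to be tested. Of the summed TPM of the 4 FOXO genes in each library, Foxo1 made up 47.1% to 52.9% in WT and 38.1% to 43.4% in Pbrm1 cKO, Foxo3 20.1% to 22.6% and 35.3% to 39.5%, and Foxo4 27.0% to 30.5% and 20.98% to 22.4%.

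**Figure D2:**
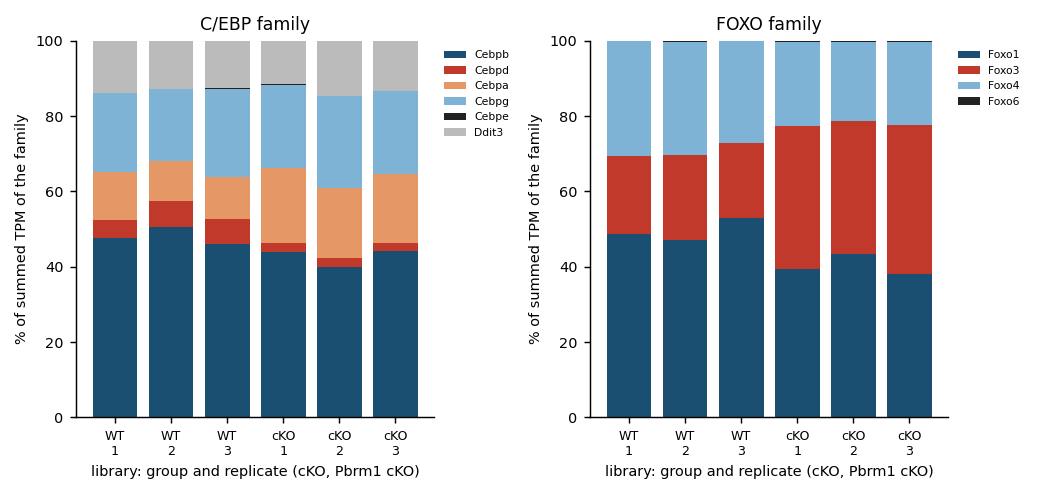
Share (in %) of each gene in the summed TPM of its family, with 1 bar for each library. In the FOXO family the Foxo3 band grows from 20.1% to 22.6% in WT to 35.3% to 39.5% in Pbrm1 cKO, and in the C/EBP family the Cebpd band shrinks while the Cebpa band grows.

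Sox4 (chr13:28948919-28953713, minus strand, a single exon) was the most abundant of the 9 factors by TPM in both groups. It had 3497, 2952 and 3473 normalized counts in WT, against 4910, 4852 and 4621 in Pbrm1 cKO. All Pbrm1 cKO libraries were above all WT libraries, and the mean rose from 3308 ± 308 to 4795 ± 153, which is 145% of WT (log2 fold change 0.54, SE 0.10, adjusted p = 8.46e-07). By DESeq2, 2 of 8 other SOX genes tested rose and 0 fell, beside 15.9% and 15.2% of all genes tested in those directions (0 fell also at an unadjusted p under 0.05, in edgeR and in limma). With WT replicate 1 left out, 3 of them fell. Sox5 rose (320, 353 and 388 normalized counts in WT, 536, 539 and 565 in Pbrm1 cKO; log2 fold change 0.63, SE 0.13, adjusted p = 9.28e-06). The SOXC relatives of Sox4 were low, Sox11 at 1.07, 4.44 and 1.08 normalized counts in WT, against 6.91, 6.39 and 8.44 in Pbrm1 cKO (adjusted p = 0.197), and Sox12 at 139, 104 and 83.2 in WT and 112, 113 and 104 in Pbrm1 cKO (adjusted p = 0.979).

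The promoters of 7 of the 9 factors, all but Cebpd and Zbtb16, were matched by symbol in the RefSeq table for GRCm38.p6, and those of Foxo1, Foxo3 and Sox4 are printed because their mRNA changed in opposite directions. Each is the 250 bases upstream of the RefSeq start, 5′ to 3′ on the strand of the gene. Capitals mark a GC box (GGGCGG on either strand, the KLF and SP1 type of site) or the TGACG core of a cAMP response element on either strand. The starts in the count table differ. The counted genes reach 42276755 for Foxo3 and 28953713 for Sox4, so the last bases of their windows lie inside the counted genes, as does the last base for Foxo1.
Foxo1, chr3:52268087-52268336, plus strand: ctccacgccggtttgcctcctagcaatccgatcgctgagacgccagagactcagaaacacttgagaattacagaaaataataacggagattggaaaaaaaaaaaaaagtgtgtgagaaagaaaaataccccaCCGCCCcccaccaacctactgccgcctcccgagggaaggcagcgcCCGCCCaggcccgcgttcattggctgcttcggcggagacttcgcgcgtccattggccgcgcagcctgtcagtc
Foxo3, chr10:42276696-42276945, minus strand: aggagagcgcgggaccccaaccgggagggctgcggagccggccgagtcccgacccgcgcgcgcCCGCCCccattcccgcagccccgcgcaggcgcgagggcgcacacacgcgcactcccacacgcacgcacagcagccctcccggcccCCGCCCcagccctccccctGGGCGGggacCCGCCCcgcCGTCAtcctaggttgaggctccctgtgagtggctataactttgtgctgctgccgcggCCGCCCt
Sox4, chr13:28953700-28953949, minus strand: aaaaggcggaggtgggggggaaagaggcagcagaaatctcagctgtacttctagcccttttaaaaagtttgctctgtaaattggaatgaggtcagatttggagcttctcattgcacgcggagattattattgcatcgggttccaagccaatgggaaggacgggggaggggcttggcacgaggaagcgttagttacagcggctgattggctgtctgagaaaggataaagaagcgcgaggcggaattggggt
Foxo1 held 2 GC boxes and no TGACG, Foxo3 held 5 GC boxes and 1 TGACG, and Sox4 held neither. GC boxes were in the same window of 32.7% of 32851 mouse promoters and TGACG in 17.8%. Among the 7 factors with a promoter, 5 had a GC box and 4 had TGACG (Cebpb, Foxo3, Klf4 and Klf9). Foxo1 had 20 CpG dinucleotides, Foxo3 had 31 and Sox4 had 11, beside a median of 6 over all promoters. The FOXO letters GTAAACA were found in Klf9 only, 100 bases upstream of its start, and in 3.17% of all promoters. AP-1 letters (TGANTCA) were likewise in Klf9 only, and in 6.75% of promoters. The C/EBP letters TTGCNNAA (9.56% of promoters), the GATA letters AGATAA (9.99%) and the complete element TGACGTCA (1.55%) were in none of the 7. Neither was the steroid receptor element, searched as GNACA and TGTNC with 3 bases between them, which 0.387% of promoters held. These matches describe letters in a window and not binding.

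The 2 KLF members pointed in opposite directions, and neither passed the test. Klf4 (chr4:55527143-55532466, minus strand, 2 to 5 exons) had 723, 498 and 719 normalized counts in WT, against 876, 872 and 769 in Pbrm1 cKO. The groups did not overlap, with WT replicate 2 the lowest library. The log2 fold change was 0.38 (SE 0.16, 95% interval 0.07 to 0.68), and its adjusted p of 0.0534 was just outside the threshold. Klf4 passed in 5 of 15 alternative fits, among them those without WT replicate 1 (log2 fold change 0.46, adjusted p = 0.01) and without WT replicate 3 (0.45, adjusted p = 0.0226), and without WT replicate 2 its log2 fold change was 0.22 (adjusted p = 0.225). Klf9 (chr19:23141226-23166911, plus strand, 2 exons) had 850, 890 and 860 normalized counts in WT, against 804, 772 and 762 in Pbrm1 cKO. The groups again did not overlap, yet the difference was small (log2 fold change -0.15, SE 0.10, 95% interval -0.35 to 0.04, adjusted p = 0.252), and on the TPM scale, where the median tested gene was 0.20 higher, the log2 ratio of its group means was 0.05. The count of Klf4 over that of Klf9 was 0.850, 0.560 and 0.835 in WT and 1.09, 1.13 and 1.01 in Pbrm1 cKO. These ratios did not overlap (difference in log2 ratio 0.55; exact two-sided permutation p = 0.1, the smallest possible), and without WT replicate 2 the difference was 0.35.

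Of 12 other KLF genes tested, 5 rose and 1 fell (50% past the test, beside 31.1% of all genes), with a median log2 fold change of 0.25. With upper-quartile scaling, and likewise with the gene length trend removed, 3 rose and 3 fell, and by limma 5 rose and 3 fell. The number that rose was 2 to 6 with 1 library left out. It was 2 without WT replicate 2, Pbrm1 cKO replicate 1 or Pbrm1 cKO replicate 2, and 3 without WT replicate 3 or Pbrm1 cKO replicate 3. Without WT replicate 2, 2 fell. Klf6, an injury-response factor and the most abundant KLF in these cells, had 11058, 11000 and 11823 normalized counts in WT, against 15490, 15630 and 15270 in Pbrm1 cKO (log2 fold change 0.45, SE 0.08, adjusted p = 3.14e-08). It made up 61.6% to 65.5% of the summed TPM of the 17 KLF genes in WT and 67.7% to 69.3% in Pbrm1 cKO. Klf10, a TGF-β-induced factor, rose (log2 fold change 0.51, SE 0.11, adjusted p = 5.77e-05), and Klf13 fell (log2 fold change -0.37, SE 0.13, adjusted p = 0.0192), a call that was lost without WT replicate 1 (adjusted p = 0.0587) or any of the Pbrm1 cKO libraries (up to 0.131).

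Gata2 (chr6:88193891-88207032, plus strand, 3 to 6 exons) had 1060, 764 and 817 normalized counts in WT, against 765, 777 and 708 in Pbrm1 cKO. The ranges overlapped, with WT replicate 1 the highest library. Its log2 fold change of -0.23 (SE 0.14, 95% interval -0.51 to 0.05, adjusted p = 0.231) did not pass the test and was -0.08 without WT replicate 1. Gata2 supplied 90.6% to 95.7% of the summed TPM of the 6 GATA genes in WT and 89.1% to 90.0% in Pbrm1 cKO. Of its relatives, Gata3, Gata4 and Gata6 were tested, and 0 of the 3 passed in DESeq2, with 0 also at an unadjusted p under 0.05, in edgeR and in limma. Of all genes tested 31.1% passed, and so short a list says little beside that share.

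Zbtb16 (chr9:48654297-48836222, minus strand, 7 exons) was the lowest of the members. It had 62.0, 31.1 and 37.8 normalized counts in WT, against 48.3, 39.95 and 46.0 in Pbrm1 cKO, from 28 to 58 raw counts per library. The WT libraries spanned the whole Pbrm1 cKO range. The log2 fold change was 0.03 (SE 0.35, DESeq2 adjusted p = 0.96). Its 95% interval of -0.65 to 0.72 leaves room for a change of that size in either direction, and the smallest difference that these libraries could detect was not computed. Without WT replicate 1, the highest library, the log2 fold change was 0.37 (adjusted p = 0.49).

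**Figure D3:**
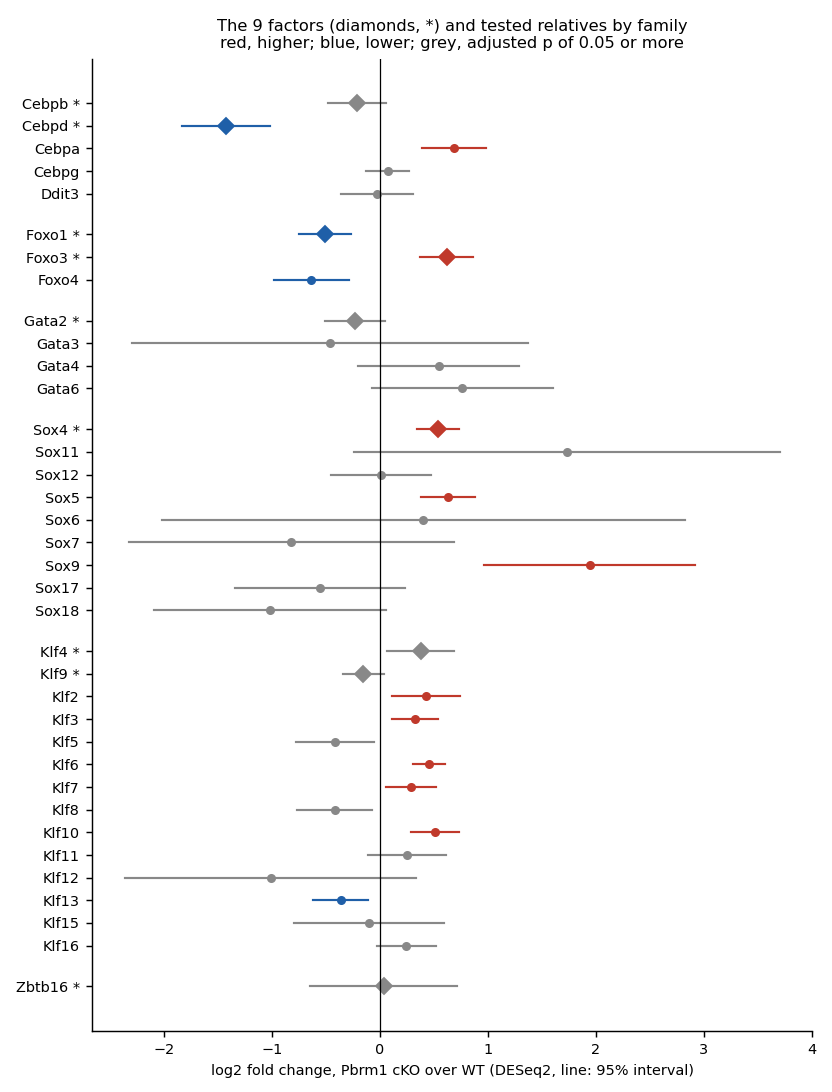
Log2 fold change of Pbrm1 cKO over WT (horizontal axis) with its 95% interval for the 9 factors (diamonds) and each tested relative in its family (circles). Cebpd at -1.43 is the lowest member, Foxo1 (-0.51) and Foxo3 (0.62) lie on opposite sides of 0, and the intervals of Cebpb, Gata2, Klf9 and Zbtb16 cover 0.

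Compared per length, WT levels ran from Sox4 (113 to 141 TPM) through Cebpb (73.6 to 89.0 TPM), Klf9 (49.7 to 50.3 TPM), Klf4 (30.0 to 45.8 TPM), Gata2 (25.9 to 38.0 TPM), Foxo1 (17.0 to 20.8 TPM), Cebpd (8.99 to 12.0 TPM) and Foxo3 (7.65 to 8.84 TPM) to Zbtb16 (1.08 to 2.27 TPM). Only Klf4 and Gata2 overlapped among neighbours in that order. In Pbrm1 cKO the order was Sox4 (202 to 228 TPM), Cebpb (72.2 to 89.3 TPM), Klf4 (52.9 to 63.9 TPM), Klf9 (48.9 to 54.8 TPM), Gata2 (27.5 to 31.5 TPM), Foxo1 (13.7 to 16.9 TPM), Foxo3 (13.8 to 15.6 TPM), Cebpd (4.18 to 5.04 TPM) and Zbtb16 (1.65 to 2.04 TPM). Here Klf4 overlapped Klf9, and Foxo1 overlapped Foxo3. Cebpd and Foxo3 thus exchanged places, and Foxo3 reached the level of Foxo1. By its mean TPM, Cebpd was above 56.0% of the tested genes in WT and above 39.5% in Pbrm1 cKO, and Foxo3 was above 51.6% and 59.1%. On this log2 TPM scale the median tested gene was 0.20 higher in Pbrm1 cKO, so a level in TPM is not compared between the groups without that shift.

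The gene surroundings were read from the same counts. Cebpb overlaps Tmem189 and Cebpd overlaps Spidr, in both cases on the opposite strand, and reads were counted by strand. Spidr had 641 mean normalized counts in WT, against 734 in Pbrm1 cKO (log2 fold change 0.20, adjusted p = 0.319) and did not pass the test, and neither did Tmem189 (log2 fold change 0.14, adjusted p = 0.564). The nearest expressed genes on either side of Cebpd both fell, Mzt2 at a distance of 23917 bases (log2 fold change -0.84, SE 0.22, adjusted p = 0.000633) and Pkp2 at 322287 bases (-1.32, SE 0.19, adjusted p = 1.17e-10). Foxo1 overlaps Gm38034 on its own strand, which had 15.1 and 12.2 mean normalized counts, and the antisense Gm20402, which had none. Its flanking genes Maml3 (log2 fold change 0.02, adjusted p = 0.965) and Cog6 (-0.26, adjusted p = 0.0636) did not pass the test. Those of Foxo3, Gm9855 (0.85, adjusted p = 0.0516) and Afg1l (0.05, adjusted p = 0.912), did not pass either. Around Sox4, the lincRNA Gm26735 on the opposite strand (adjusted p = 0.191), 2610307P16Rik (adjusted p = 0.814) and Cdkal1 (adjusted p = 0.139) did not pass. Next to Zbtb16, Nnmt, a nicotinamide methyltransferase gene at a distance of 49144 bases, fell from 138 to 34.0 mean normalized counts, a log2 fold change of -2.02 (SE 0.25, adjusted p = 2.05e-14). The nearest genes of Cebpb, Gata2 and Klf9 did not pass the test.

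The genes most like each factor over the 6 libraries, by Pearson correlation of log2(normalized count + 1) among 10392 protein-coding genes, were Dnajc10 and Ikbip for Cebpd (r = 0.998 for both), Abcf3 (0.995) and Uhrf1bp1l (0.993) for Foxo1, Ifnar2 (0.9997) and Asphd2 (0.998) for Foxo3, and Ero1l and Slc12a4 (0.999 for both) for Sox4. For the factors that did not pass the test they were Twist1 (0.981) and Ttll5 (0.980) for Cebpb, Cplx2 and Coq5 (0.995 for both) for Gata2, Mfn2 (0.999) and Ccdc86 (0.997) for Klf4, Pdzd11 (0.999) and Dap (0.997) for Klf9, and Rnf126 (0.997) and Abhd16a (0.968) for Zbtb16. With 6 points in 2 groups such values are common, and 13.6% of these genes had an r of at least 0.9 with Cebpd and 13.9% with Sox4, against 0.25% with Cebpb.

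Genes around the factors were then read as lists. Of 23 tested FOXO target genes, 9 rose and 4 fell (56.5% past the test, beside 31.1% of all genes), with a median log2 fold change of 0.27. Txnip, an inhibitor of thioredoxin, rose from 630, 461 and 502 normalized counts in WT to 1628, 1600 and 1509 in Pbrm1 cKO (log2 fold change 1.57, SE 0.13, adjusted p = 2.39e-30). Pdk4, the kinase that shuts off pyruvate dehydrogenase, fell from 154, 225 and 299 to 23.7, 20.8 and 19.7 (log2 fold change -3.41, SE 0.31, adjusted p = 1.67e-26). Neither pair of groups overlapped, and the 2 targets moved apart. The cell cycle inhibitor gene Cdkn1a rose (log2 fold change 1.38, SE 0.50, adjusted p = 0.0212) from WT values of 315, 373 and 947, a call that held only without WT replicate 3 when 1 library was left out (adjusted p up to 0.117), and the mitophagy kinase gene Pink1 fell (-0.61, SE 0.23, adjusted p = 0.0277), a call that held only without WT replicate 1 (up to 0.205). Without Pbrm1 cKO replicate 2 the list had 5 genes that rose, and the number that fell was 1 without WT replicate 2, Pbrm1 cKO replicate 1 or Pbrm1 cKO replicate 2 and 2 without Pbrm1 cKO replicate 3. Of 15 genes listed as inputs of PI3K and AKT to FOXO, mostly enzymes and adaptors, 6 rose and 1 fell (46.7% past the test, beside 31.1% of all genes). Without WT replicate 1, 9 rose and 2 fell, and without WT replicate 3, 7 rose and 2 fell, while 4 or 5 rose and 1 fell with any other library left out. By limma 9 rose and 1 fell, and 4 rose and 2 fell with upper-quartile scaling or with the length trend removed. Irs1, the insulin receptor adaptor, fell from 617, 422 and 385 to 144, 174 and 144 normalized counts, a log2 fold change of -1.62 (SE 0.20, adjusted p = 5.58e-14). Phlpp1 (0.67, SE 0.14, adjusted p = 1.92e-05) and Phlpp2 (0.73, SE 0.17, adjusted p = 0.000124), which encode phosphatases that inactivate AKT, both rose. Phosphorylation and localization of the FOXO proteins were not measured.

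Among 22 genes of the cAMP and PKA route, which induces Cebpb and Foxo1 in decidualizing cells, 5 rose and 4 fell (40.9% past the test, beside 31.1% of all genes), with a median of 0.05. Ptger2, a prostaglandin E2 receptor that raises cAMP, rose from 8.55, 27.7 and 18.4 normalized counts to 90.8, 99.1 and 97.6 (log2 fold change 2.40, SE 0.36, adjusted p = 5.88e-10), as did the adenylyl cyclase gene Adcy9 (0.71, SE 0.20, adjusted p = 0.00172). Prkar1b, a PKA regulatory subunit (-0.74, SE 0.12, adjusted p = 3.12e-08), and the phosphodiesterase gene Pde4b (-0.69, SE 0.14, adjusted p = 7.25e-06) fell. The number that fell was 2 without WT replicate 2 or any of the Pbrm1 cKO libraries. Of 12 tested genes listed as steroid receptors and their partners, 5 rose and 4 fell (75.0%). The list also holds coactivators, cochaperones and the enzyme gene Hsd11b1. Ncoa3, a receptor coactivator (0.69, SE 0.11, adjusted p = 1.76e-09), and Fkbp5, a cochaperone that lowers glucocorticoid receptor affinity (0.80, SE 0.15, adjusted p = 2.77e-06), rose, and Fkbp4, the cochaperone that the progesterone receptor needs in the uterus (-0.80, SE 0.10, adjusted p = 5.73e-13), and Hsd11b1, which regenerates active glucocorticoid (-2.86, SE 0.24, adjusted p = 7.29e-30), fell. Of 17 tested targets of the progesterone and glucocorticoid receptors, 6 rose and 3 fell (52.9%), and 1 fell with the gene length trend removed. Ddit4, an inhibitor of mTORC1, rose (0.92, SE 0.22, adjusted p = 0.000291), and the phosphatase gene Dusp1 fell (-1.09, SE 0.12, adjusted p = 3.79e-18). Lcn2 rose (1.19, SE 0.38, adjusted p = 0.00805) and Cdkn1c fell (-0.75, SE 0.29, adjusted p = 0.0349), but the Lcn2 call was lost without WT replicate 3 or Pbrm1 cKO replicate 1 or 2 (adjusted p up to 0.296) and the Cdkn1c call with any 1 library left out (up to 0.16). With WT replicate 1 left out, 5 fell, and with any other library left out, 1 fell.

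Decidual factors and products outside the member list were read in the same way. Of 25 other decidualization transcription factors, 7 rose and 4 fell (44.0% past the test, beside 31.1% of all genes, of which 15.9% were higher and 15.2% lower), with a median of -0.01. Runx1 (log2 fold change 1.09, SE 0.10, adjusted p = 3.91e-27) and the immediate early factor Egr1 (1.29, SE 0.13, adjusted p = 9.79e-22) rose, and Hand2, a progesterone-induced stromal factor (-1.004, SE 0.14, adjusted p = 1.95e-11), and Osr2 (-0.69, SE 0.25, adjusted p = 0.0202) fell. The Osr2 call was lost without WT replicate 1 or Pbrm1 cKO replicate 2 or 3 (adjusted p up to 0.147). Of 27 tested decidual response genes, 3 rose and 11 fell (51.9%), with a median of -0.23, and 7 fell without Pbrm1 cKO replicate 2. Dio2, which activates thyroid hormone (-2.02, SE 0.38, adjusted p = 1.28e-06), and Ereg, an EGF-family ligand (-1.57, SE 0.19, adjusted p = 2.26e-14), fell the most among those with a mean of at least 50 normalized counts, and Vegfa rose (0.88, SE 0.15, adjusted p = 4.69e-08), as did Cdkn1a. Of 24 immediate early and dissociation genes, which respond to the enzymes used to release cells, 14 rose and 3 fell (70.8%), led by Fosb (1.40, SE 0.10, adjusted p = 1.74e-40) and Atf3 (1.38, SE 0.15, adjusted p = 1.95e-18), while Dusp1 and the heat shock gene Hspa1b (-0.47, SE 0.14, adjusted p = 0.00378) fell. The number that rose was 8 without Pbrm1 cKO replicate 1 and 9 without Pbrm1 cKO replicate 2. Klf6 belongs to this list as well, and the part of cell handling in the levels of the factors was not tested.

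Of 17 tested inflammatory genes with known C/EBP input, 10 rose, 1 fell and 6 did not pass the test (64.7% past it, beside 31.1% of all genes), with a median log2 fold change of 1.09, and 6 rose without Pbrm1 cKO replicate 2. Lif, the cytokine that implantation needs, rose from 149, 326 and 332 normalized counts to 1528, 1445 and 1269 (log2 fold change 2.40, SE 0.23, adjusted p = 1.78e-22), and Saa3, an acute-phase gene, from 9.62, 36.6 and 49.7 to 132, 117 and 165 (2.11, SE 0.40, adjusted p = 1.87e-06). With WT replicate 1 left out, 3 fell. Ptx3 fell (-1.01, SE 0.34, adjusted p = 0.0114), a call lost without WT replicate 3 or Pbrm1 cKO replicate 1 or 3 (adjusted p up to 0.173). Leukocytes express many genes of this list, and their summed markers were 307 to 686 CPM in WT and 2749 to 2892 CPM in Pbrm1 cKO.

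**Figure D4:**
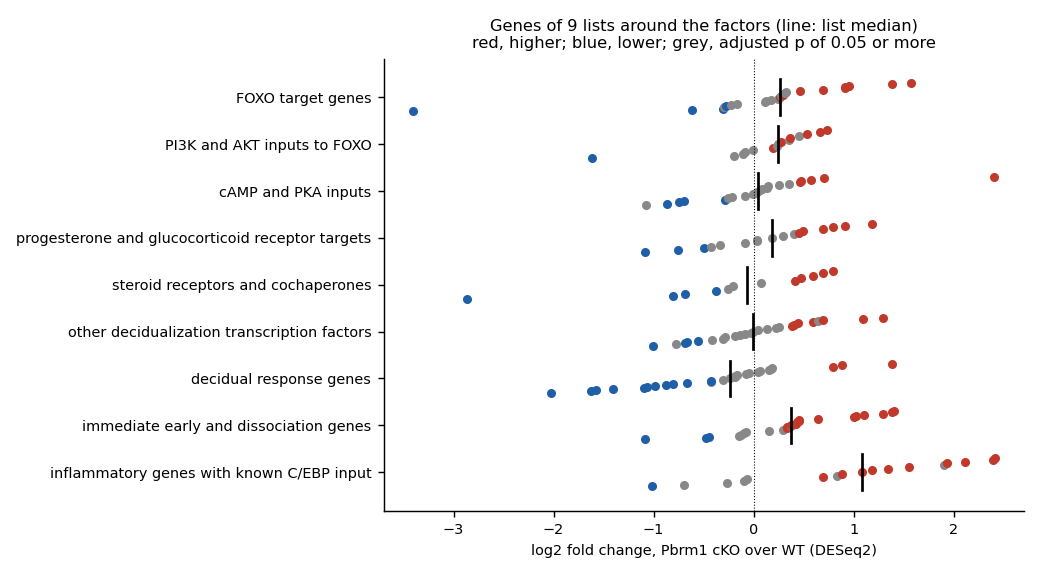
Log2 fold change of Pbrm1 cKO over WT for each tested gene of 9 lists around the factors, with the median of each list as a line. Decidual response genes have a median of -0.23, and inflammatory genes with C/EBP input have a median of 1.09.

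The calls of the 9 factors were compared over 15 alternative fits. Cebpd passed in all 15, with log2 fold changes of -1.55 to -1.30. Foxo1, Foxo3 and Sox4 passed in 14 of 15, the exception being the test against 0.58 for each. Cebpb, Gata2, Klf9 and Zbtb16 passed in none of the 15, with lowest adjusted p-values of 0.0866, 0.0998, 0.0915 and 0.49.

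**Figure D5:**
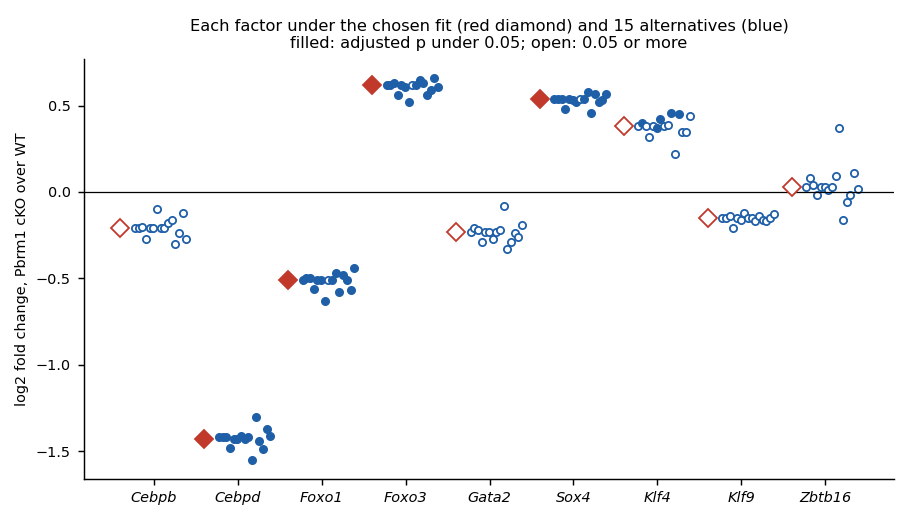
Log2 fold change of each factor (vertical axis) in the chosen DESeq2 fit (red diamonds) and in 15 alternatives (blue circles), filled where the adjusted p was under 0.05. Cebpd is filled throughout between -1.55 and -1.30, and Klf4 is filled in 5 of 15.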

How the data were processed

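Single-end reads of the 6 RNA libraries (3 WT, 3 Pbrm1 cKO) were processed by the authors with cutadapt and HISAT2 against GRCm38.p5, per the labels, and the deposited values are raw counts per gene, made by the authors with featureCounts 1.6.4 in reverse-stranded mode on GENCODE release 18. Depth was 13253575 to 18338667 counts. The gene length in the deposited table is the authors' summed exon length. The labels describe total RNA with depletion of abundant transcripts, the methods an mRNA kit, so capture of unpolyadenylated RNA is uncertain. Symbols came from a GENCODE gene table (99.7% of IDs matched), and exon numbers from GENCODE release 21.

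From these counts, DESeq2 1.42.0 (R 4.3.3) fitted WT against Pbrm1 cKO over the whole table with no covariate, with median-of-ratios scaling, unshrunken log2 fold changes, a Wald test and Benjamini-Hochberg adjustment (threshold 0.05). edgeR 4.0.16 and limma 3.58.1 served as alternatives. TPM and CPM were computed from the counts. Ratios were tested with an exact permutation test. The fits were tested on simulated data. Named genes were all members, their neighbours and 2 closest genes by correlation, and in each list up to 2 highest and 2 lowest called genes with a mean of at least 50. In marker lists these were the 2 most abundant. A gene that this rule names is not reported here. The members, lists and rules were chosen with earlier results of these data known. Replicates of each group differed beyond counting noise, the WT libraries more so (mean chi-square per gene of 16.7 to 29.8, beside 2.27 to 8.12 among Pbrm1 cKO), so the spread of the groups is unequal.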

Additional observations from a re-analysis of the deposited data

How the results depend on the processing

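Cebpd kept its direction and its call in all 15 alternatives. Against an absolute log2 fold change of 0.58, DESeq2 called 0 members higher and 1 lower (0 and 1 also at an unadjusted p under 0.05), while edgeR, tested against 0, called 2 and 2 and limma 3 and 2. Under that test Foxo1 (-0.51), Foxo3 (0.62) and Sox4 (0.54) lost their call (adjusted p = 1 for each), by construction of a stricter null, and 612 genes were higher and 485 lower, beside 2774 and 2658. Klf4 gained a call with limma voom (0.40, adjusted p = 0.0241), over genes with a mean count of at least 10 (0.37, adjusted p = 0.0412), with the gene length trend removed (0.42, adjusted p = 0.027), and without WT replicate 1 or 3; with 1 library left out its value was 0.22 to 0.46. Zbtb16 changed sign with upper-quartile scaling (-0.02) and was -0.16 to 0.37 with 1 library left out. The cause of the Klf4 and Zbtb16 shifts was not tested. The replicate numbers did not pair the samples (same-number correlations of 0.11, -0.05 and 0.00), and DESeq2 with the replicate block called 2 members higher and 2 lower, and 2175 and 1828 genes. The 3 within-library ratios kept their sign with any 1 library left out. In CPM the group ratio of Klf9 was -0.14 and in TPM 0.05. Of 450 list counts, 369 stayed within 1.5 times. Groups of 3 limit the precision, and Zbtb16 had the fewest counts of the members and WT libraries that differed widely, whose parts in its interval were not told apart.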
